A study of Mus musculus with 12 samples.

Results

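Foxp3, the transcription factor gene that defines regulatory T (Treg) cells, was followed through all 12 libraries of the series, together with the genes whose level moved with it from library to library. It was 1 of 55453 genes in the table of read counts and was taken by its symbol. The libraries were made from CD4 and Foxp3 positive Treg cells of C57BL/6 mice that were lysed straight after flow sorting and had no treatment afterwards. They formed 4 groups of 3. The males carried either the floxed CNS4 allele, which the labels also call wild type, or the CNS4 knockout, and the females were heterozygous for the floxed or for the knockout allele. CNS4 is the enhancer named in the series title, and that title speaks of thymic Treg cells, although the labels name no organ beyond the letters Thy in the sample titles. The labels name no Cre driver and no age, state that animals were matched for age and sex, and do not say whether animals were pooled or whether a replicate is 1 animal, so p-values measure the spread between these libraries. Because cells were sorted as Foxp3 positive, cells below the gate did not enter any library.

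Foxp3 is a forkhead protein that binds DNA with many partners, holds part of the Treg programme in place and represses genes of conventional T cells. Its own gene lies on the X chromosome, so a male cell carries 1 copy and a female cell expresses 1 of its pair of alleles after X inactivation. Enhancers in and near the gene respond to T cell receptor signals and to interleukin 2 through STAT5, and Foxp3 protein in turn acts on its own gene.

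The RefSeq promoter table (build GRCm38.p6) holds 2 start sites for Foxp3, both on the plus strand of chromosome X, at chrX:7579426-7579725 and chrX:7580233-7580532. Each window lies mostly upstream of its start and ends shortly after it. They are shown because a count per gene adds up transcripts from both starts and cannot separate them. Capitals mark a match to the STAT motif TTCNNNGAA, which lies at -139 bases from the second start and which 8.30% of 32851 promoter windows hold on either strand. None of the forkhead (GTAAACA), Runx (TGTGGTT), CREB (TGACGTCA) and ETS (CCGGAAGT) letters was found on either strand of these windows.
Foxp3 start 1: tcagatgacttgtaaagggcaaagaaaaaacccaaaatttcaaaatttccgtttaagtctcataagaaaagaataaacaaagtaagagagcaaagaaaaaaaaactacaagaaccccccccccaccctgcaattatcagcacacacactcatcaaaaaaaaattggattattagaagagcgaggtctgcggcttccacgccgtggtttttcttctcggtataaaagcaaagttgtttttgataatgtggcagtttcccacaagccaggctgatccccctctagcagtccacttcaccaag
Foxp3 start 2: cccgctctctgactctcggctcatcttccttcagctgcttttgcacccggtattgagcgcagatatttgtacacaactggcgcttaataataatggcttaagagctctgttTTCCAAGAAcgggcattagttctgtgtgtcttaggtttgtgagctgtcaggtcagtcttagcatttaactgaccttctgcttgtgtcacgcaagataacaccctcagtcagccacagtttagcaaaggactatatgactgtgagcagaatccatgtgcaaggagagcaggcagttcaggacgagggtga

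Before the Foxp3 values, the libraries themselves need describing. Reads in genes ranged from 12423335 to 30244505 per library with a median of 14596845. Of the reads in protein-coding genes, 95.8 to 97.2% lay in genes of the plus strand. Genes of the minus strand thus held a small part of these reads, and 9474 of the 12411 genes tested were on the plus strand. Among minus-strand genes, Ikzf2 had as few as 47 reads in a library and Mki67 had 2 to 18, while Pcna had 1183 to 3846. Female knockout libraries 1 and 3 stood apart from the other 10. Mitochondrially encoded genes took 4.04 and 3.40% of their gene reads, against 1.17 to 2.77% elsewhere. The rank correlation of a library's deviation from the mean with the GC content of genes was -0.41 and -0.30 in them, against -0.15 to 0.41 elsewhere. Male floxed library 4 and male knockout library 2 held the most myeloid and dendritic cell RNA: the 22 genes of that list summed to 5194 and 5685 CPM (reads scaled to the library total) there, against 344 to 2915 CPM in the other libraries. All 16 T cell genes of a fixed list were measured, and their summed level was 6134 to 9062 CPM, against 573 to 1795 CPM for 12 genes of CD8 and immature thymocytes. In bulk RNA, fewer cells of a type and less RNA per cell cannot be told apart.

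Foxp3 was among the well-measured genes, with 11178 to 53622 reads per library, and it was lower in knockout than in floxed libraries. In floxed males it stood at 2675, 2588 and 2227 CPM in libraries 1, 2 and 4. In knockout males it stood at 1878, 1462 and 2037 CPM in libraries 1 to 3. Per 100000 gene reads, without TMM scaling, these 3 had 184, 147 and 177, so library 3 was the highest only after that scaling. Every knockout male library was below every floxed male library, and the nearest pair, floxed 4 and knockout 3, were 2227 and 2037 CPM. In floxed females the level was 2582, 2658 and 2657 CPM, the narrowest spread of the 4 groups. In knockout females it was 685, 1824 and 825 CPM. Library 2 of that group lay inside the range of the knockout males, while libraries 1 and 3, which stood apart in the traits above, were the lowest of all 12.

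**Figure D1:**
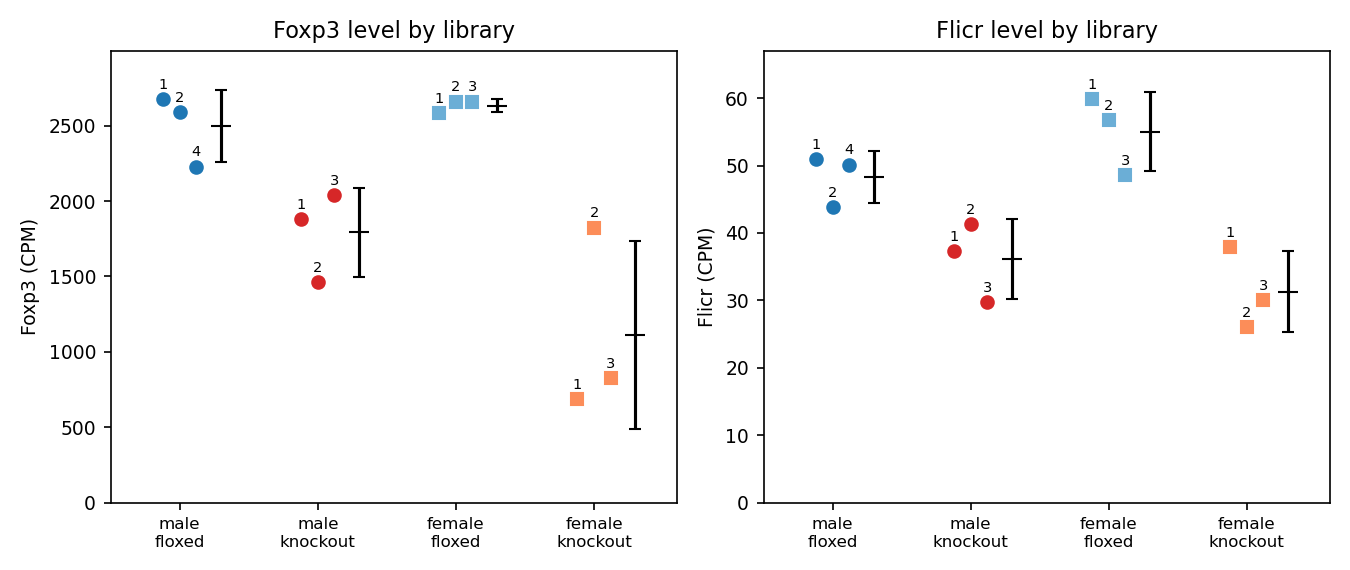
Level of Foxp3 (left) and of its neighbour Flicr (right) in CPM by group, 1 point per library with its replicate number, and the mean with its SD beside each group (n = 3). For Foxp3 all 6 floxed libraries, 2227 to 2675 CPM, lie above all 6 knockout libraries, 685 to 2037 CPM, and for Flicr the groups are 43.8 to 59.8 and 26.0 to 41.3 CPM.

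Ordered by level, the 6 floxed libraries took ranks 1 to 6 and the 6 knockout libraries ranks 7 to 12. Such a complete separation of 6 knockout below 6 floxed libraries was seen for 90 of 12411 tested genes (0.725%). Knockout libraries lay below floxed ones without overlap for 6.13% of genes in males, 9.70% in females and 1.78% in both sexes at once. The means were 2496 ± 238 CPM (SD, n = 3) in floxed males, 2632 ± 43.8 CPM in floxed females, 1792 ± 297 CPM in knockout males and 1111 ± 621 CPM in knockout females. Neighbours in that order were not all apart: floxed females exceeded floxed males by 0.08 in mean log2 CPM (two-sided exact permutation test over samples, p = 0.7), and knockout females were below knockout males by a mean log2 difference of -0.81 (exact permutation p = 0.2). Within each sex, knockout and floxed libraries gave the smallest p that 3 against 3 allows (exact permutation p = 0.1 in males and 0.1 in females). Over both sexes, with labels exchanged within each sex, the p was again the smallest of the 400 splits, 0.005. The mean log2 CPM fell by 0.49 in males, to 0.713 of the floxed level, and by 1.38 in females, to 0.384 of it.

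In the edgeR model fitted across all 12411 genes (quasi-likelihood, p-values adjusted over all of them), the log2 difference of Foxp3 was -0.48 (SE 0.30, adjusted p = 0.835) in males, -1.24 (SE 0.31, adjusted p = 0.103) in females and -0.86 (SE 0.22, adjusted p = 0.0600) over both. None of the 3 passed the threshold of 0.05. Beside these, 0% of all genes were called lower in males, 0.0161% in females and 0.637% over both. In males 354 genes were lower at an unadjusted p under 0.05 in edgeR, and DESeq2 called 62. The female contrast was larger than the male one by a log2 difference of -0.77 (SE 0.43, edgeR adjusted p = 0.892), so a difference between the sexes was not shown. Without female knockout library 2 the value over both was -1.13 (edgeR adjusted p = 0.00117), and without libraries 1 and 3 of that group the females differed by -0.53 (SE 0.16, edgeR adjusted p = 1), with the 1 library left assumed to vary like the other groups. DESeq2 and limma-voom with quality weights called the fall in females (adjusted p = 0.00755 and 0.000368) and over both (0.00627 and 0.000275).

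A ratio of Foxp3 to another gene of the same library does not depend on how libraries are scaled. It does keep any effect of GC content where the genes differ in it. GC content was 55.0% for Foxp3, 44.4% for Il2ra and 42.6% for Ctla4, and female knockout libraries 1 and 3 had the most negative GC correlations (-0.41 and -0.30). How far GC content enters these ratios was not tested. Relative to Il2ra, the interleukin 2 receptor alpha chain gene, the log2 ratio of counts was 0.25 ± 0.20 (SD, n = 3) in floxed and -0.43 ± 0.31 in knockout males, and 0.16 ± 0.0039 in floxed and -1.34 ± 0.99 in knockout females. Relative to Ctla4, the inhibitory receptor gene, it was 1.64 ± 0.044 and 0.68 ± 0.29 in males and 1.43 ± 0.12 and -0.47 ± 1.02 in females. Relative to Cd3d, a chain of the T cell receptor complex, it was 1.60 ± 0.13 and 1.02 ± 0.18 in males and 1.68 ± 0.048 and 0.065 ± 1.01 in females. In each of these 3 ratios all 6 knockout libraries were below all 6 floxed libraries, and the differences over both sexes, -1.10, -1.43 and -1.10, had an exact permutation p of 0.005 each, the smallest of 400 splits. For Ptprc, which is on the minus strand, the difference was -1.11 (exact permutation p = 0.015), and the males overlapped (p = 0.3). Il2ra itself differed by a log2 value of 0.18 (SE 0.12, edgeR adjusted p = 0.395) over both, while Ctla4 rose by 0.50 (SE 0.12, edgeR adjusted p = 0.0457), so the Ctla4 ratio holds a change of Ctla4 as well. The 4 ratios share the Foxp3 counts and are not separate lines of evidence.

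**Figure D2:**
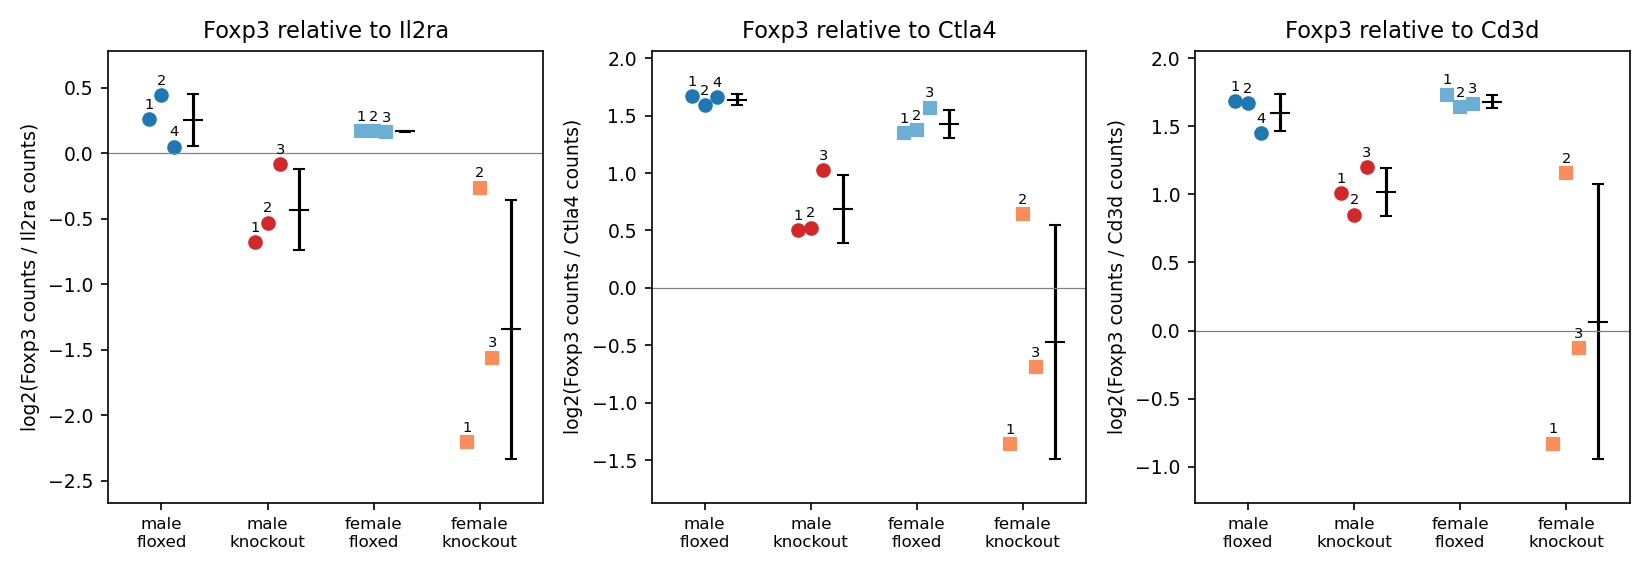
Log2 ratio of Foxp3 counts to Il2ra, Ctla4 and Cd3d counts by group, 1 point per library with its replicate number, and the mean with its SD (n = 3). The knockout libraries lie below the floxed libraries in each panel, and female knockout libraries 1 and 3 lie lowest, at -2.21 and -1.56 for Il2ra.

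Of 35 genes around Foxp3 found in the table, 20 had enough reads to be tested, 14 of them on the plus strand, and 1 passed over both sexes, beside 2.68% of all genes called higher and 0.637% called lower, so the count is near that share. That gene, Flicr, makes a long noncoding RNA from the same strand next to Foxp3, described as a negative regulator of Foxp3 in cis. Its level was 50.9, 43.8 and 50.1 CPM in floxed males and 37.3, 41.3 and 29.7 CPM in knockout males. In females it was 59.8, 56.7 and 48.5 CPM in floxed and 37.9, 26.0 and 30.03 CPM in knockout libraries. The groups did not overlap in either sex. Flicr fell by 0.62 on the log2 scale over both sexes (SE 0.13, edgeR adjusted p = 0.0313), and its exact permutation p was 0.005. The call was lost in 12 of 23 alternative analyses (highest adjusted p = 0.101), among them every single omission of a library except male knockout 2 or 3 or female knockout 1 or 2. Unlike Foxp3, it was not lowest in female knockout libraries 1 and 3: library 2 of that group had the lowest value. Flicr and Foxp3 overlap in GENCODE M21 on the same strand, so reads in the shared part could not be given to either, and Flicr also shares 310 exonic bases with other-strand genes. Foxp3 shares 856 such bases.

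Which genes followed the Foxp3 level was asked by fitting, for every other tested gene, a slope on Foxp3 log2 CPM over 10 libraries. Female knockout libraries 1 and 3 were kept out of this fit because they stand apart, and their values are given separately. A slope is the log2 change of a gene per log2 unit of Foxp3. Over these 10 libraries 94 of 12410 genes (0.757%) rose with Foxp3 and 294 (2.37%) fell as it rose, at an edgeR adjusted p under 0.05. Genotype and Foxp3 level overlap almost fully here, since floxed libraries span 2227 to 2675 CPM and the 4 knockout libraries 1462 to 2037 CPM. Over most of this range Foxp3 level and genotype cannot be told apart, and the slopes share their libraries with the knockout comparison. Leaving out each library in turn gave 4 to 114 rising and 25 to 456 falling genes, and all 388 genes kept the sign of their slope each time. Only the omission of male knockout library 3 left both counts within 1.5 times.

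The 12 genes with the most negative Pearson correlation with Foxp3 had r from -0.980 to -0.956 and Spearman's rho from -1 to -0.842 (n = 10), and from -0.978 to -0.894 without the 2 libraries farthest from the Foxp3 median, male knockout 2 and female knockout 2. They were picked as the extremes of all genes by r, so the permutation p of each r, 0.00013 or lower, is not corrected for that choice, and the adjusted p of the slope is the corrected value. All 12 slopes passed, at edgeR adjusted p = 0.00334 to 0.0210. Of these genes 7 are known from cell division or DNA replication. Rrm1 encodes the large subunit of ribonucleotide reductase, which makes the building blocks of DNA, and it followed the exact reverse order of Foxp3 (rho = -1, permutation p = 1e-05, the smallest these permutations give). Its level was 258, 307 and 340 CPM in floxed males and 309, 274 and 302 CPM in floxed females. In knockout males it was 444, 500 and 404 CPM, and in knockout female library 2 it was 475 CPM. The 2 libraries kept out had 648 and 601 CPM, the highest of all, so Rrm1 did not overlap between genotypes. Its slope was -1.09 (SE 0.12, edgeR adjusted p = 0.00536).

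Cep55, which acts in the final separation of daughter cells, stood at 18.6, 20.6 and 33.2 CPM in floxed males, 23.7, 19.4 and 22.6 CPM in floxed females and 48.9, 60.7 and 36.4 CPM in knockout males. Knockout females had 43.5, 45.8 and 49.2 CPM in libraries 1 to 3. The highest floxed library was male 4, which also had the lowest Foxp3 of the floxed group. The lowest knockout library was male 3, which had the highest Foxp3 CPM of its group. The slope was -1.998 (SE 0.19, edgeR adjusted p = 0.00334). Hmgb2, a chromatin protein that is abundant in dividing cells, was 163 to 241 CPM in floxed and 262 to 388 CPM in knockout libraries, with a slope of -1.40 (SE 0.14, edgeR adjusted p = 0.00334). Knl1, a scaffold of the kinetochore, was 28.4 to 56.2 CPM in floxed and 43.5 to 103 CPM in knockout libraries and so overlapped, again through male floxed 4 and male knockout 3, with a slope of -2.18 (SE 0.22, edgeR adjusted p = 0.00334). Pbk, a mitotic kinase gene (slope -2.29), Pclaf, a partner of the replication clamp PCNA (-1.96), and Fam111a, a protease that works at replication forks (-1.34), complete this group.

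The other 5 were Alg8, a glucosyltransferase of N-glycan assembly (slope -0.99), Pnp, which breaks down purine nucleosides (-1.05), Gpd2, the mitochondrial glycerol phosphate dehydrogenase (-0.73), Tmem38b, an ion channel of the endoplasmic reticulum (-0.84), and Casp4, an inflammatory caspase (-1.69). Pnp has a near-identical copy, Pnp2, that could share its reads, and is uncertain. In female knockout libraries 1 and 3, 10 of the 12 lay above every floxed library, while Gpd2 and Tmem38b had at least 1 of the pair inside the floxed range. Over the 6 knockout libraries r with Foxp3 was 0.042 for Gpd2, 0.44 for Tmem38b and -0.98 to -0.13 for the rest of the 12. Of the 12, 10 also passed the knockout comparison over both sexes, where 2.68% of all genes were called higher, with log2 differences from 0.66 to 1.21. That comparison shares its libraries with the choice of the 12 genes, so nothing is read from this count.

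**Figure D3:**
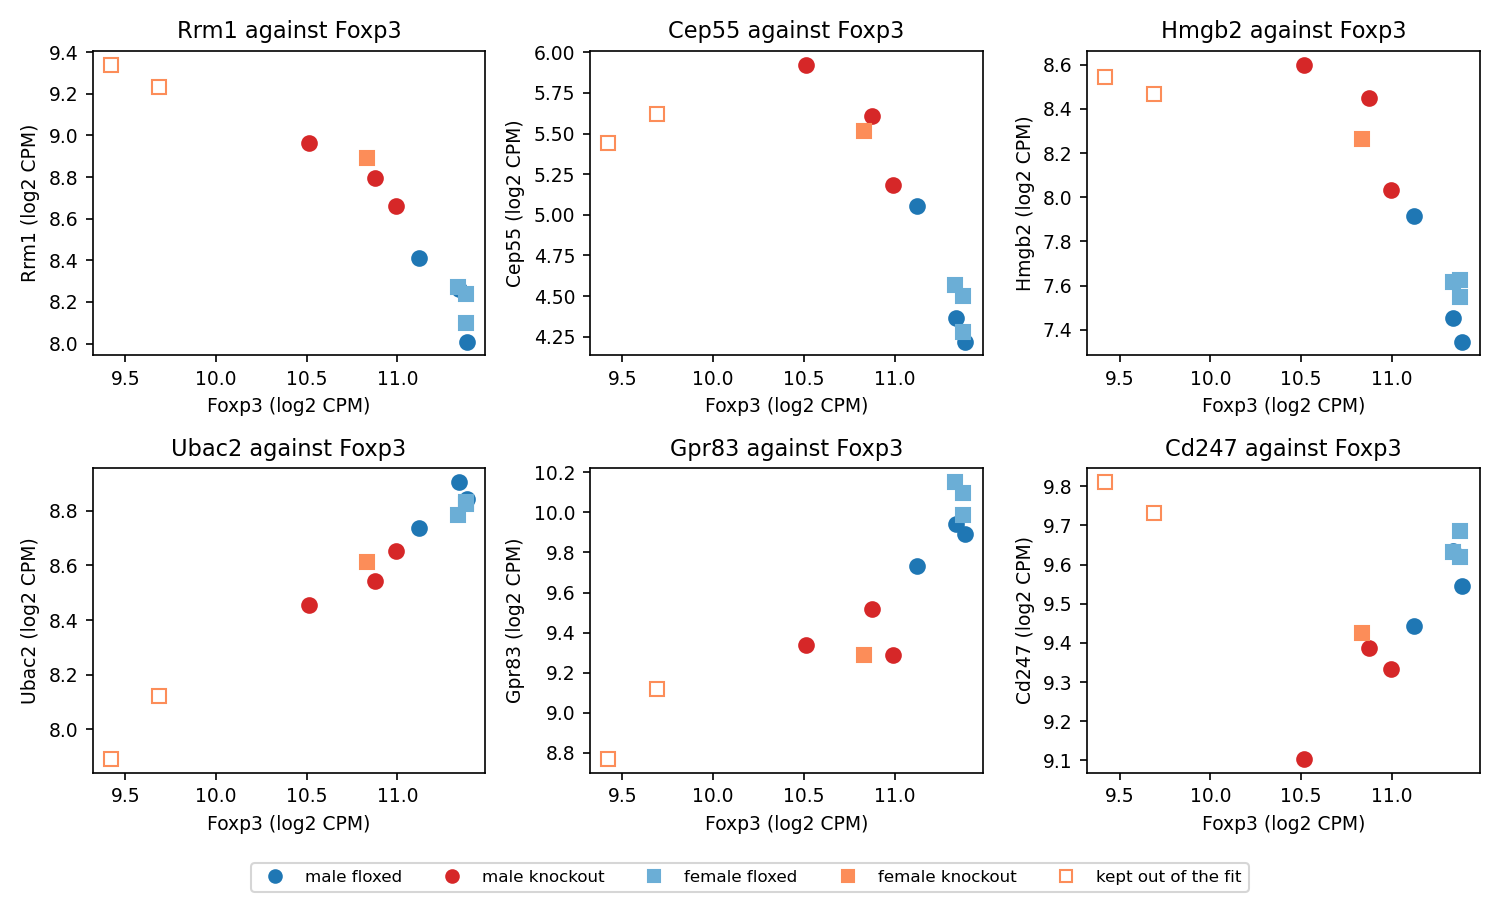
Log2 CPM of Rrm1, Cep55, Hmgb2, Ubac2, Gpr83 and Cd247 against log2 CPM of Foxp3, 1 point per library, circles for males and squares for females, with the 2 libraries kept out of the slopes drawn open. Over the filled points Rrm1, Cep55 and Hmgb2 fall and Ubac2, Gpr83 and Cd247 rise with Foxp3. The open points of Cd247 lie above every floxed library. Those of Cep55 and Hmgb2 lie within the range of the other knockout libraries, although Foxp3 is lowest there.

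The promoter windows of these genes were read for the letters of motifs known from cell cycle genes. Of the 12 genes, 10 matched the RefSeq promoter table, and 5 of them (Cep55, Pnp, Hmgb2, Gpd2 and Knl1) held TTTGAA, the cell cycle homology region (CHR), on either strand, against 0 of 10 matched genes among the 12 that rose most closely with Foxp3 and 17.9% of all 32851 windows. Windows of a gene with several starts count together. The CCAAT box (CCAAT) was in 5 of 10 of each set, against 37.4% of all windows. The E2F letters (TTTCCCGC, TTTGGCGC, TTTCGCGC or TTTGCCGC) were in 1 of 10 of each, against 2.26%. These 3 motifs were added after the genes were known, and the counts are descriptions of letters, not of sites in use. Of the motifs named for Foxp3, forkhead was in 0 of the rising and 2 of the falling genes (3.65% of all windows), STAT in 1 and 2 (8.30%), ETS in 1 and 1 (3.89%), and Runx (5.27%) and CREB (1.79%) in none. The windows of 3 falling genes are shown with the CHR match in capitals, at chr8:57511593-57511892 for Hmgb2, chr19:38054734-38055033 for Cep55 and chr2:119046869-119047168 for Knl1, all on the plus strand of GRCm38.p6. In Hmgb2 the capitals also mark 4 CCAAT boxes, and its CHR matches lie at -218 and -30 bases from the start. In Cep55 and Knl1 the match lies 24 and 31 bases after the start shown. Cep55 has a second start further on, from which the same match lies at -33 bases.
Hmgb2: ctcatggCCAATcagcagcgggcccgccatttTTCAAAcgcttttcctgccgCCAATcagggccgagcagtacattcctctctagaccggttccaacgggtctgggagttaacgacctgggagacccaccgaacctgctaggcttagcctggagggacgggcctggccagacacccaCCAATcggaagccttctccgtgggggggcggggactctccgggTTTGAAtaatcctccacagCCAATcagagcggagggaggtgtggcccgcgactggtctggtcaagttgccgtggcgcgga
Cep55: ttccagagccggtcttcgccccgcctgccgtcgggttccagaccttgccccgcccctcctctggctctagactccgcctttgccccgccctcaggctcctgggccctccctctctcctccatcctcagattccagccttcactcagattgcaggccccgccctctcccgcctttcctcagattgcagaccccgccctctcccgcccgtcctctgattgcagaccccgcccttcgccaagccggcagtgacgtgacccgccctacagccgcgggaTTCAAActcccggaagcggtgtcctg
Knl1: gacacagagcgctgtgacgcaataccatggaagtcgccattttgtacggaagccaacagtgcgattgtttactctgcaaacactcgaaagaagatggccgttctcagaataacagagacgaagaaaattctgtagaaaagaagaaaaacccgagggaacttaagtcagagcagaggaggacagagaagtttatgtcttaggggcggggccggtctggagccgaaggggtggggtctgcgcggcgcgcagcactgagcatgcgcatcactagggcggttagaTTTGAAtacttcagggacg

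The 12 genes that rose most closely with Foxp3 had r from 0.934 to 0.963 and rho from 0.770 to 0.939 (n = 10), chosen the same way, with permutation p of r at 0.00037 or lower. Without the 2 farthest libraries r was 0.830 to 0.980. The slope passed for 11 of the 12, at edgeR adjusted p = 0.00736 to 0.0178, and was 0.34 (SE 0.098, edgeR adjusted p = 0.0989) for Kat8, a histone acetyltransferase gene. Ubac2, a membrane protein gene of the endoplasmic reticulum, had the highest r. It stood at 459, 479 and 427 CPM in floxed males, 373, 351 and 403 CPM in knockout males, 441, 455 and 453 CPM in floxed females and 238, 392 and 279 CPM in knockout females. It did not overlap between genotypes, and the 2 libraries kept out had the lowest values. Its slope was 0.47 (SE 0.080, edgeR adjusted p = 0.0171). Col11a2, a collagen chain gene, had the steepest slope of the 12, 1.79 (SE 0.23, edgeR adjusted p = 0.00878), at 14.4 to 19.6 CPM in floxed and 2.11 to 10.9 CPM in knockout libraries.

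The rest had shallower slopes and varied functions. Irak2, a kinase of interleukin 1 and Toll-like receptor signalling (slope 0.69), Patj, a cell polarity scaffold (1.09), Slc44a2, a choline transporter-like protein (0.56), Lgals4, a galectin (1.01), Tcf25, a ribosome quality control protein (0.58), and Luc7l, a splicing factor (0.53), were all on the plus strand, and Pecam1, the adhesion molecule CD31 (1.22), was on the minus strand with 78 to 212 reads. Bach2, a repressor that restrains effector genes in T cells (slope 0.71), and Cd247, the zeta chain of the T cell receptor complex (0.56), are known from T cells. Cd247 was 697 to 824 CPM in floxed and 550 to 688 CPM in the 4 knockout libraries of the fit, but 898 and 850 CPM in the libraries kept out, above every floxed library. Over all 12 libraries its slope was -0.068 and that of Pecam1 was -0.092. Of the 12, 7 had both kept-out libraries below every floxed library, Patj only by 302.10 against 302.18 CPM, 1 had both above and 4 neither. Over the 6 knockout libraries r with Foxp3 was 0.86 to 0.99 for Ubac2, Col11a2, Irak2, Kat8 and Luc7l. It was negative for Pecam1 (-0.85), Lgals4 (-0.81), Cd247 (-0.80), Slc44a2 (-0.73), Patj (-0.36), Bach2 (-0.34) and Tcf25 (-0.15), so these did not rise with Foxp3 among knockout libraries. In the knockout comparison over both sexes 4 of the 12 passed as lower, Col11a2, Irak2, Patj and Tcf25, beside 0.637% of all genes. The comparison shares its libraries with the choice of these genes, so nothing is read from that count. With Spearman's rho in place of r, 7 of the 24 genes would have been chosen. Of the 24, Irak2, Kat8, Bach2, Cd247, Fam111a, Pnp and Gpd2 share from 122 to 3007 exonic bases with other-strand genes in GENCODE M21 and are less certain.

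To separate Foxp3 level from genotype, genotype was added to the slope fit, which leaves the differences among 6 floxed and among 4 knockout libraries. Then 5 genes rose and 118 fell (0.0403 and 0.951% of genes), and 9 of the 388 genes passed with the same sign, Knl1 among the 24 named (slope -2.59, SE 0.48, edgeR adjusted p = 0.0406). Of the 388, 380 kept their sign. All 24 named slopes kept their sign and had larger errors, as for Hmgb2 at -1.19 (SE 0.30, edgeR adjusted p = 0.116) and Rrm1 at -0.73 (SE 0.24, edgeR adjusted p = 0.239). The slopes of 3 moved by more than 1.5 times, those of Lgals4 to 0.53, Tcf25 to 0.31 and Bach2 to 1.07 (SE 0.21, edgeR adjusted p = 0.0558). Within genotype the low-Foxp3 libraries were male floxed 4 and male knockout 2, which also held the most myeloid RNA. Of 16 tested myeloid and dendritic cell genes, 5 (Siglech, H2-Aa, H2-Ab1, Cd74 and Lyz2) were among the 118, beside 0.951% of all genes. Of the 123 called genes, 39 had r above 0.9 with the summed myeloid level. The share of all genes with such an r was not counted, and these 5 genes are part of the sum, so nothing is read from it. Whether myeloid RNA lies behind the calls was not tested. Without male floxed 4 and male knockout 2, an analysis added after the data were seen, the 10-library fit gave 21 rising and 180 falling genes. With the myeloid level as a covariate in that fit, 112 of the 388 genes were still called and all 388 kept their sign.

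**Figure D4:**
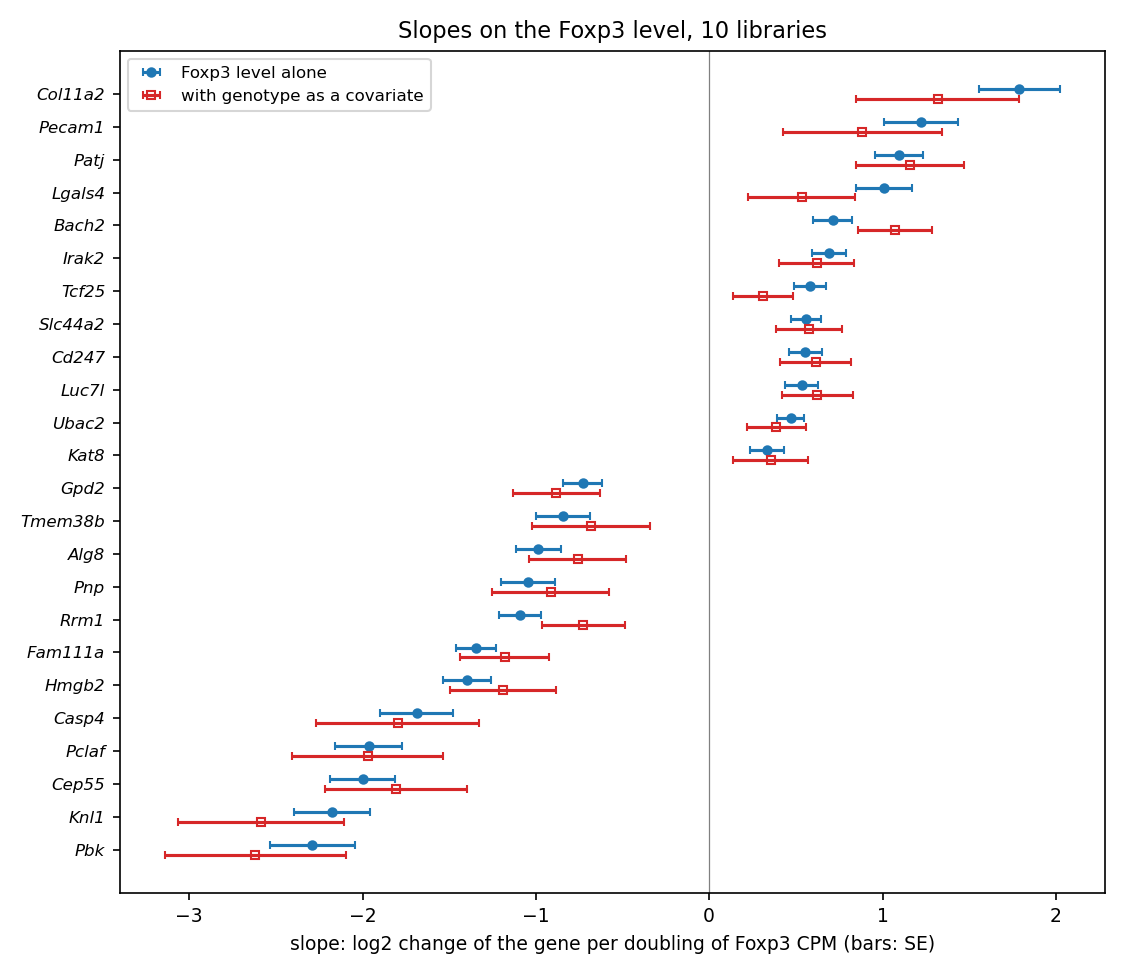
Slope of each of the 24 named genes on Foxp3 log2 CPM over 10 libraries, with its SE, from the fit on the Foxp3 level alone (filled circles) and with genotype as a covariate (open squares). Signs are the same in both, and the error bars of the open squares are wider, as for Rrm1 with SE 0.12 and 0.24.

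The cell division theme was set against lists of S phase and mitosis genes, which were put together after the genes above had been seen and so are only a description. Of 29 tested S phase genes 14 fell with rising Foxp3, 0 rose, and the median slope was -0.94; of 37 tested mitosis genes 20 fell, 0 rose, and the median was -1.61. These counts include Rrm1 and Pclaf in S phase and Cep55, Knl1, Pbk and Hmgb2 in mitosis, which were chosen for their r with Foxp3. Without them 12 of 27 S phase genes fell (median slope -0.81) and 16 of 33 mitosis genes (-1.60). DESeq2, and edgeR at an unadjusted p under 0.05, also had 0 rising genes in both lists. Over all tested genes 2.37% fell and the median slope was 0.05. Of the 29 S phase genes 16 were on the plus strand, and of the 37 mitosis genes 21. Several of the others had few reads, such as Mki67 with 2 to 18, so counts and medians mix well and poorly measured genes. Among the S phase genes, Mcm5, part of the replication helicase, had a slope of -0.98 (SE 0.22), and Pcna, the replication clamp on the minus strand, -0.81 (SE 0.19). Among the mitosis genes, the kinesin gene Kif11 had -1.87 (SE 0.20) and the spindle gene Prc1 -1.61 (SE 0.19), all at an edgeR adjusted p under 0.05. In the kept-out libraries Prc1 was 161 and 157 CPM, above every floxed library, but Kif11 was 93.0 and 111 CPM, inside its floxed range of 78.2 to 151 CPM. Over the 6 knockout libraries the median r with Foxp3 was -0.63 for S phase and -0.69 for mitosis genes. Some called members had a positive r there, such as Rrm2 (0.91), Aurkb (0.83), Kif11 (0.80), Ube2c (0.80) and Plk1 (0.73). The S phase genes summed to 1908 to 2510 CPM in floxed and 3096 to 3314 CPM in knockout libraries, without overlap, and the kept-out libraries, 3118 and 3302 CPM, were in the knockout range. The mitosis genes summed to 2921 to 3419 CPM in floxed and 3217 to 4448 CPM in knockout libraries and overlapped at male floxed 4 and male knockout 3. The kept-out libraries had mitosis sums of 3595 and 3550 CPM. These were above male knockout 3 but below male knockout 1 and 2 and female knockout 2 (4137, 4448 and 3864 CPM), although Foxp3 was lowest in them. The most abundant mitosis gene, Smc4, did not pass (slope 0.37, edgeR adjusted p = 0.426). With genotype as a covariate, 0 of the S phase and 1 of the mitosis genes fell, with medians of -0.41 and -1.57 beside 0.11 over all genes.

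**Figure D5:**
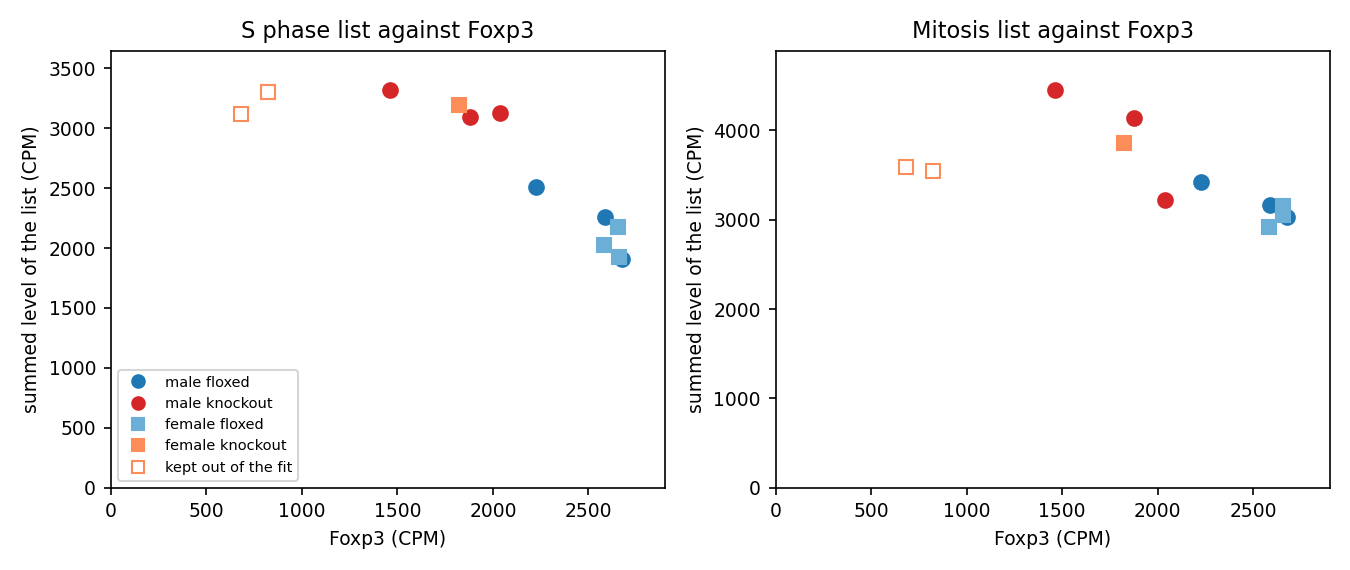
Summed CPM of the S phase list (left) and of the mitosis list (right) against Foxp3 CPM, 1 point per library, with the 2 libraries kept out of the slopes drawn open. The S phase sum is 1908 to 2510 CPM in floxed and 3096 to 3314 CPM in knockout libraries, and the mitosis sums of the genotypes overlap.

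Genes known to be raised by Foxp3 in Treg cells were called in both directions. Of 36 tested, 2 rose with Foxp3 and 5 fell, beside 0.757 and 2.37% of all genes, and the median slope was -0.40 beside 0.05 over all genes. The pair that rose was Gpr83, a Treg marker receptor (slope 0.98, SE 0.18, edgeR adjusted p = 0.0197), and Arhgap20 (1.31, SE 0.30, edgeR adjusted p = 0.0440). Gpr83 was 950, 983 and 852 CPM in floxed males, 733, 647 and 624 CPM in knockout males, 1138, 1094 and 1014 CPM in floxed females and 436, 626 and 556 CPM in knockout females. It did not overlap between genotypes, its lowest values were in the libraries of lowest Foxp3, and it fell by 0.74 on the log2 scale over both sexes (SE 0.095, edgeR adjusted p = 0.00465).

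The 5 genes that fell as Foxp3 rose were Fgl2, a secreted suppressive protein of Treg cells (slope -2.91), S100a6, a calcium-binding protein (-2.18), Ebi3, a subunit of heterodimeric cytokines (-2.07), Icos, a costimulatory receptor (-1.42), and Capg, an actin-capping protein (-1.23). Icos was 492 to 625 CPM in floxed and 876 to 1602 CPM in knockout libraries. Ebi3 and Fgl2 were low in the kept-out libraries, 17.2 and 17.6 CPM for Ebi3 against 59.3 to 85.2 CPM in the other knockout libraries, so the slope over 10 libraries does not describe those. Il2ra and Ctla4 had slopes of -0.062 (SE 0.19) and -0.40 (SE 0.24), neither passing, and Ikzf2, on the minus strand with as few as 47 reads, had 0.34 (SE 0.37). In the knockout comparison over both sexes 8 of these 36 genes rose and 1, Gpr83, fell, beside 2.68 and 0.637% of all genes. Of 28 tested genes that Foxp3 is known to hold down, 0 rose and 0 fell with it, with a median slope of 0.31. At an unadjusted p under 0.05 in edgeR 7 rose and 1 fell, and DESeq2 called 1 each way.

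Among 46 tested factors that act on the Foxp3 gene, 2 rose with it, Stat5a and Bach2, and 2 fell, Uhrf1, which keeps DNA methylation through replication, and Rbpj, the Notch pathway factor. Over all genes 0.757% rose and 2.37% fell, so the falling count is near that share, and Bach2 is also among the genes named for their r with Foxp3. Stat5a carries the interleukin 2 signal to the nucleus. It was 1190, 1230 and 1099 CPM in floxed males, 848, 780 and 920 CPM in knockout males and 1137, 1164 and 1263 CPM in floxed females. In knockout females it was 312, 1008 and 411 CPM, so no knockout library reached the floxed range and libraries 1 and 3 were far below the rest. Its slope was 0.73 (SE 0.11, edgeR adjusted p = 0.0146) over 10 libraries, but the knockout comparison over both sexes gave -0.75 (SE 0.24, edgeR adjusted p = 0.119). Stat5a has a neighbouring paralog of similar sequence, Stat5b, on the other strand, and shares 72 exonic bases with other-strand genes, so reads could be split between them. Of 40 tested partners and modifiers of Foxp3 protein, 0 rose and 2 fell, Rbpj and Irf4, a factor of effector Treg cells (slope -0.97, SE 0.17, edgeR adjusted p = 0.0173). That count is near the 2.37% of all genes that fell.

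A second fit used all 12 libraries with 1 mean per group, so that a slope could come only from differences inside a genotype and sex. There 1581 of 12410 genes (12.7%) rose with Foxp3 and 58 (0.467%) fell. In both this fit (of 1581) and the 10-library fit (of 94) 19 genes were called as rising, and 7 as falling (of 58 and of 294). Of the 24 named genes Ubac2, Col11a2 and Irak2 passed as rising and Rrm1 as falling. Pecam1 (slope -0.44), Lgals4 (-0.22), Cd247 (-0.17), Slc44a2 (-0.082) and Tmem38b (0.12) had the sign opposite to their 10-library slope, none passing. Median slopes were 0.073 for the 12 named as rising and -0.35 for the 12 named as falling. This fit turned on the knockout females. Without libraries 1 and 3 of that group 1 gene rose, without library 2 0 rose and 1 fell, and without library 1 17 rose and 3 fell. The rising genes had a median GC content of 52.2%, against 48.7% over all genes tested, and after a trend on GC content and length was removed from each library 0 rose and 0 fell (edgeR), with 1266 genes at an unadjusted p under 0.05. Among Foxp3's neighbours 5 of 20 rose, Prickle3, Pim2, Tfe3, Syp and Praf2. Pim2, a kinase gene, was 15.2 and 16.9 CPM in the libraries that stand apart and 50.8 to 148 CPM in the others, and Zap70, a kinase of T cell receptor signalling on another chromosome, was 50.6 and 63.7 CPM against 121 to 434 CPM. Of the genes raised by Foxp3, 5 of 36 rose, Nrp1, Plagl1, Nt5e, Cd83 and Ebi3, of those held down by it 4 of 28, Il6st, Rasgrp1, Zap70 and Pik3ip1, of factors acting on its gene 7 of 46 and of its partners 8 of 40, beside 12.7% of all genes. Ebi3 fell in the 10-library fit and rose here.

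Traits of the libraries were compared with the Foxp3 level over the same 10 libraries, 6 relations in all. The share of reads outside annotated features had r = 0.696 and rho = 0.733 (permutation p = 0.0228 and 0.0205, adjusted over the 6 relations 0.137 and 0.105), and the summed myeloid level had r = -0.600 and rho = -0.685 (permutation p = 0.0613 and 0.0349, adjusted 0.184 and 0.105). Without the 2 farthest libraries r was 0.643 and -0.187, so the second relation rests on male knockout 2 and female knockout 2. Depth (r = -0.215), mitochondrial share (r = -0.247), the GC trend (r = 0.280) and the summed level of Cd3d, Cd3g, Lck and Ptprc (r = -0.021) had adjusted permutation p-values from 0.736 to 0.953.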

How the data were processed

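RNA of sorted Treg cells was measured in 12 libraries made with SMARTer Stranded RNA-Seq kits, per the labels' protocols. The authors deposited raw read counts per gene symbol, for which the submitters' processing notes list HTSeq 0.6.1p1, CASAVA and STAR (2.3.0e and 2.5.2b) and the build mm9. Which STAR version did what, the annotation and the strand setting are not given in the sources used here. The 5 HTSeq summary entries were left out of library sizes.

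Strand, GC content, length and overlaps came from GENCODE M21 by symbol (54586 of 55453 genes matched), and promoter sequences from RefSeq, without those of chromosome 18. Genes passing filterByExpr on the 4 groups (12411 of 29806 with reads) were tested with edgeR 4.0.16 in R 4.3.3 (TMM, quasi-likelihood, robust, Benjamini-Hochberg over all genes, threshold 0.05). Log2 CPM used a prior count of 2. The design for knockout against floxed was 1 mean per group. Slopes on Foxp3 log2 CPM were fitted over 10 libraries and, with group means, over 12. Exact permutation tests took single values, and 100000 permutations each correlation. The edgeR slope over 10 libraries and the edgeR knockout comparison over both sexes were tested on simulated data, and the other analyses were not. Replicates differed by more than sampling noise (chi-square per degree of freedom 5.38 to 171).

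The named genes were the 12 with the highest and the 12 with the lowest Pearson r with Foxp3 at a mean log2 CPM of at least 3, leaving out predicted models, clone names, receptor segments, pseudogenes and microRNAs, with list members past a slope threshold (at most 6 a list and direction), tested neighbours, Il2ra, Ctla4, Ikzf2 and Gpr83. Members and lists were chosen with earlier results of these data known. Alternatives were RLE, DESeq2 1.42.0, limma-voom (limma 3.58.1), other filters, plus-strand genes, GC and length trends (mgcv 1.9.3), covariates, blocks and left-out libraries.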

Additional observations from a re-analysis of the deposited data

How the results depend on the processing

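Foxp3 was lower in knockout libraries under every alternative run. In males no alternative called it. In females DESeq2 (-1.25, adjusted p = 0.00755) and limma-voom with quality weights (-1.65, adjusted p = 0.000368) did, as did the omission of library 2 of the knockout females (leaving out each library gave -1.79 to -1.004). Over both sexes it was called by DESeq2 (-0.87), limma-voom (-1.11), when genes needed 5 CPM in 3 or more libraries (-0.87, edgeR adjusted p = 0.0429) and with the GC and length trend removed (-0.70, edgeR adjusted p = 0.0221), and leaving out each library gave -1.13 to -0.75. The female minus male contrast was called by limma-voom (-1.07) and without female knockout 2, with a range of -1.33 to -0.52 over single omissions. Knockout females minus knockout males were -0.69 (edgeR adjusted p = 0.145), called by limma-voom (-1.02) and without female knockout 2 (range -1.24 to -0.44), and reversed to 0.025 without female knockout libraries 1 and 3.

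The number of genes that rose or fell with Foxp3 over 10 libraries (94 and 294) depended on the analysis. It was 298 and 699 with DESeq2, 374 and 946 with limma-voom, 48 and 130 with no low-count filter, 495 and 120 with the GC and length trend removed, 30 and 122 with the myeloid level as a covariate, 381 and 620 with the mitochondrial share and 357 and 622 with the GC correlation as a covariate, 5 and 118 with genotype, 21 and 180 without male floxed 4 and male knockout 2, and 2467 and 1528 over all 12 libraries. With the ratio to Ptprc in place of Foxp3 it was 0 and 0 (edgeR), with 2551 genes at an unadjusted p under 0.05, and all 388 kept their sign. The rising genes were 171 at the 5 CPM filter and 145 with the ratio to Cd3d. Leaving out each library gave 4 to 114 and 25 to 456. The causes of these shifts were not tested. The slopes of Pecam1 (-0.092) and Cd247 (-0.068) reversed over all 12 libraries. Within groups (1581 and 58) it was 859 and 3 with limma-voom and 0 and 0 with the GC and length trend removed. The genes that fell were 194 with DESeq2, 33 with no low-count filter, 124 at the 5 CPM filter and 162 with the ratio to Ptprc, and 1 rose without female knockout 1 and 3. Leaving out each library gave 0 to 1680 and 1 to 41; the 58 that fell became at most 38 on every omission other than those of male knockout 1 and female knockout 3. Spearman's rho in place of r kept 7 of 24 named genes.

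The replicate numbers showed no steady pairing: the correlation of deviations between same-numbered libraries was 0.44 and -0.61 in males and 0.19, 0.28 and -0.22 in females. With so few libraries these values cannot decide whether samples were paired. With the replicate block, Foxp3 differed by -0.91 over both sexes (edgeR adjusted p = 0.126) and Flicr by -0.56 (edgeR adjusted p = 0.0920), 19 genes rose and 139 fell over 10 libraries, and 1053 rose and 10 fell within groups. Fits on the libraries of 1 sex gave no value for contrasts that need both.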

Other observations

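No other tested forkhead gene was called with Foxp3. Of 38 family members in the table, 17 had no read in any library, 10 were tested, and 0 rose and 0 fell with Foxp3 over 10 libraries, with a median slope of 0.44. Plus-strand genes held 95.8 to 97.2% of protein-coding reads, so a family member without reads is not shown to be silent. In edgeR 1 had an unadjusted p under 0.05, and DESeq2 called 0. Foxo1, which acts on the Foxp3 gene, had a slope of 0.43 (edgeR adjusted p = 0.586), Foxp1, the closest paralog measured and on the minus strand, 0.57 (edgeR adjusted p = 0.240), and Foxm1, a factor of dividing cells, -1.21 (edgeR adjusted p = 0.556).

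Of 16 T cell genes, Cd247 alone passed over 10 libraries. Trac, the constant segment of the T cell receptor alpha chain, had a slope of 0.0055 (edgeR adjusted p = 0.987), Cd3d -0.05 (edgeR adjusted p = 0.849) and Trbc1 -0.10 (edgeR adjusted p = 0.595). Lists of other cells had no called member over 10 libraries: 0 of 9 genes of CD8 and immature thymocytes (median slope -0.40), 0 of 16 myeloid and dendritic cell genes (-2.84), 0 of 4 B cell genes (-1.28), 0 of 3 NK and innate lymphoid genes (-2.46) and 0 of 7 thymic epithelial and erythroid genes (0.37). At an unadjusted p under 0.05 edgeR had 2, 6, 2, 2 and 0 of these in either direction, and DESeq2 called 1 myeloid and dendritic cell gene, which fell, and 1 NK and innate lymphoid gene, which rose. Of the defining markers of these lists, Klrb1c, Klra8, Krt5, Krt14, Foxn1 and Hbb-bt had no read in any library. Because 95.8 to 97.2% of protein-coding reads lay in plus-strand genes, a marker without reads does not show that its cells were absent.

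With genotype as a covariate, 9 genes were called with the sign of their first slope: Igkv2-109, Jaml, Zfp760, Casp1, Dnah12, Rps27l, Knl1 and Kynu fell and Ncoa3 rose as Foxp3 rose. They are named after their values were seen. Casp1, the inflammatory caspase, had slopes of -1.68 and, with genotype, -2.60 (edgeR adjusted p = 0.0280), and Ncoa3, a nuclear receptor coactivator, 0.54 and 1.03 (edgeR adjusted p = 0.0327).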
